A study of Caenorhabditis elegans with 6 samples.

Results

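The saposin-like spp genes of Caenorhabditis elegans were followed in whole worms of 3 strains, kept without or with octopamine. The 8 members are spp-1, spp-3, spp-5, spp-8, spp-9, spp-10, spp-12 and spp-14, taken by gene symbol in the platform annotation of the array. In that annotation 17118 genes had at least 1 probe set (a group of probes for a transcript) to themselves, and 5 of the 8 members are among them. The other 3 members shared a probe set with another gene: spp-3 with its neighbour spp-2, spp-5 with T08A9.13, and spp-9 with spp-21. In those 3 cases the signal cannot be assigned to 1 gene, and it is called below by both names. In all, 12 probe sets stood for the members.

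Wild-type worms were N2. A second strain carried daf-16(mu86), a mutation in the gene of the FOXO transcription factor DAF-16 of the insulin pathway. The other strain, called the receptor mutant here, carried alleles of the octopamine receptor genes ser-3 and ser-6 (ser-3(ok2007);ser-6(tm2146)). Both mutants are labelled as being in the N2 background. Synchronized worms grew for 3 days, and the young adults were then moved for 2 days to plates holding either no octopamine or 20 mg/mL of it, so the 6 groups are each strain without and with octopamine. The labels give the age as day 4 adult and the RNA protocol as 5 days old. Each group was 1 array, and the sources used here give no number of worms or cultures behind an array. The series title names the questions as stress resistance under octopamine and the role of DAF-16.

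Saposin-like proteins share a compact fold of helices held together by disulphide bonds, which binds to lipids and membranes. In worms a large branch of the family, the caenopores, resembles the amoebapores of amoebae and can make bacterial membranes leak. Several caenopores are made in the intestine, where the worm meets and digests its bacterial food, so the family stands between digestion and defence.

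The targeted genes were read first. Of 4 daf-16 probe sets, the dimmest gave signals of 47.7 and 43.4 in N2 and of 7.26 and 6.31 in the daf-16 strain, without and with octopamine, and the other 3 were also lower there. The ser-3 probe set was dim everywhere, at 22.3 and 25.7 in N2 and 18.2 and 17.7 in receptor mutants, and ser-6 had none assigned to it. Where these probe sets lie relative to the deletions was not checked. Median signals of the arrays lay between 23.8 and 26, and all 11 intestinal marker genes on the array passed the filter on low signal, so the tissue of the caenopores was present in the RNA. The ubiquitin control, whose 3′ over 5′ signal ratio reflects RNA quality, stood at 5.32 to 5.48 on untreated and at 5.74 to 6.23 on octopamine arrays. The same ratio overlapped between treatments for the other controls, at 1.69 to 2.14 and 1.79 to 2 for actin and at 0.919 to 1.24 and 1.03 to 1.09 for Gapdh. The part of RNA quality in the results below was not tested.

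Intensities were compared on the log2 scale after each array's median had been subtracted. A feature (a gene, or a probe set shared by several genes) was tested when its mean signal over the 6 arrays reached 15.6, which left 10644 features. Of the members, 7 of 8 passed that filter and spp-9/spp-21 did not. With 1 array per group, a ratio between a pair of arrays has no replicate check and no p-value. The test for octopamine came from an additive limma model over all 6 arrays, with a term for strain and a term for octopamine and Benjamini-Hochberg adjustment over all features at 0.05. In it the 3 strains serve as repeats of the treatment, so a response seen in 1 strain counts as error. No label names separate cultures for the arrays, and a p-value reflects no more than how these arrays vary.

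Octopamine lowered the intestinal caenopore signal of spp-1 and that of the spp-2/spp-3 probe set, and no member rose over the strains. Of 7 members tested, 2 fell and 0 rose. The share of all features that fell was 14.7% and the share that rose was 7.22%. With values as deposited the split over all features was 974 rising and 1047 falling, and after quantile normalization 994 and 920, against 769 and 1567 here. The median change of the 7 members was -0.17 on the log2 scale, beside -0.06 for all features tested. At an unadjusted p under 0.05 there were 5 members and 3904 features.

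**Figure D1:**
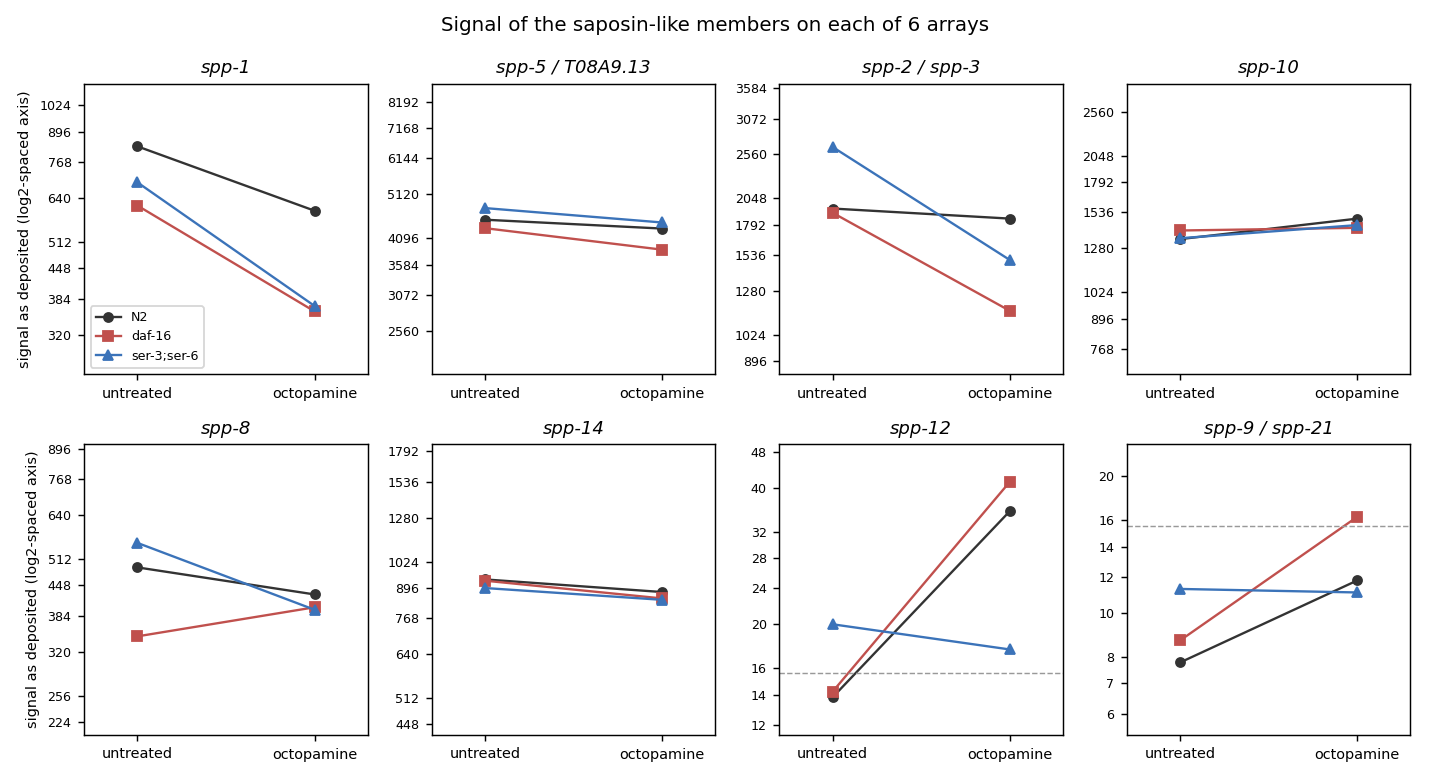
Signal as deposited (log2-spaced axis) of the 8 members on each of the 6 arrays, untreated on the left and with octopamine on the right of each panel, with 1 point per array, 1 line per strain and a dashed line at the filter value of 15.6. The 3 lines of spp-1 all go down, and those of spp-12 go up in N2 (from 13.8 to 35.5) and in daf-16 worms (from 14.2 to 41.2) but not in receptor mutants (from 20 to 17.6).

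The gene spp-1 encodes an intestinal caenopore with antibacterial activity and is a known target of DAF-16. Its signal went from 832 to 600 in N2 worms on octopamine, from 616 to 360 in daf-16 worms and from 693 to 370 in receptor mutants. Every octopamine array was below every untreated one, and the lowest untreated signal, in daf-16 worms, was only a little above the highest treated one, in N2. The log2 ratios were -0.56 in N2, -0.81 in daf-16 worms and -0.95 in receptor mutants. By limma with Benjamini-Hochberg adjustment the change was -0.78 ± 0.09 (log2, SE, n = 6 arrays, adjusted p = 0.0017), 1.71-fold lower and lower in 3 of 3 strains. These values come from a probe set whose suffix (_s) marks probes that match more than 1 transcript. The other probe set of spp-1 lay at 11.6 to 15.7, with a mean below the filter, and went up by 0.11 and 0.24 in N2 and daf-16 worms and down in receptor mutants, at -0.23. With the mean of both probe sets the change was -0.37 (adjusted p = 0.0462 by limma), within a range of adjusted p from 0.000201 to 0.0462 over the alternatives. In these whole-body samples, fewer cells of a type and less RNA per cell cannot be told apart.

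Single intestinal markers moved in both directions, but their summed signal as deposited was lower with octopamine in each strain. It went from 23025 to 20720 in N2, from 23983 to 23530 in daf-16 worms and from 24492 to 22365 in receptor mutants. A sum weighs the brightest genes most. The median log2 ratio of the 11 genes was 0.003 in N2, 0.06 in daf-16 worms and -0.19 in receptor mutants. Over the strains their median change was -0.07, beside -0.06 for all features. Of 11 genes 2 rose and 2 fell, beside 7.22% and 14.7% of all features. The intestinal GATA factor gene elt-7 rose by 0.46 ± 0.11 and the intermediate filament gene ifb-2 by 0.44 ± 0.12, and the proton pump subunit gene vha-6 fell by 0.43 ± 0.13 (log2, SE, adjusted p = 0.0197, 0.034 and 0.0435 by limma). The part of intestinal RNA in the spp-1 values was not tested.

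The gene spp-3 stands first in an unbroken run of 5 spp genes on the X chromosome, in the order spp-3, spp-2, spp-6, spp-4 and spp-5 (gene order of the RefSeq table for assembly WBcel235). The spp-2/spp-3 probe set had signals of 1946 and 1849 in N2 (untreated, then octopamine), of 1905 and 1158 in daf-16 worms, and of 2660 and 1499 in receptor mutants. All octopamine arrays were below all untreated ones, clearly so in the mutants, whereas both N2 arrays and untreated daf-16 were close to each other. The log2 ratios were -0.16, -0.76 and -0.88 in the order N2, daf-16, receptor mutant. By limma the change was -0.60 ± 0.13 (SE, n = 6 arrays, adjusted p = 0.0143), 1.51-fold lower and lower in 3 of 3 strains. It cannot be told from this probe set whether spp-2, spp-3 or both changed.

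At the other end of that run lies spp-5, an intestinal caenopore whose protein kills bacteria by making their membranes permeable. The probe set shared by spp-5 and T08A9.13 had the strongest signals among the members' probe sets as deposited. It gave 4503 and 4305 in N2 (untreated, then octopamine), 4314 and 3868 in daf-16 worms, and 4777 and 4440 in receptor mutants. The treated array was below the untreated array of the same strain each time, but the treated signal of the receptor mutant lay above the untreated one of daf-16, so the groups overlapped. The log2 ratios of -0.15, -0.20 and -0.15 were close together. The change of -0.17 ± 0.06 (SE, n = 6 arrays, adjusted p = 0.0712 by limma), lower in 3 of 3 strains, did not pass. This probe set also has the _s suffix.

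Between them in the run, spp-4 is no member but has a probe set of its own without a suffix. Its signal fell from 496 to 305 in N2, from 507 to 273 in daf-16 worms and from 614 to 286 in receptor mutants, so that treated and untreated arrays did not overlap. By limma it changed by -0.96 ± 0.09 (SE, n = 6 arrays, adjusted p = 0.000671), 1.94-fold lower and lower in 3 of 3 strains. The remaining gene of the run, spp-6, was below the filter at 5.78 to 6.32.

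The gene spp-10 encodes the worm's relative of prosaposin, the precursor that in mammals is cut into the saposins which help lysosomal enzymes to break down sphingolipids. Its brightest probe set had signals of 1341 and 1488 in N2 (untreated, then octopamine), 1401 and 1420 in daf-16 worms and 1347 and 1440 in receptor mutants. As deposited, all treated arrays were above all untreated ones by a little. After the median of each array was subtracted the 6 values lay within 0.13 on the log2 scale and the groups overlapped. The log2 change was 0.03 ± 0.07 (SE, n = 6 arrays, adjusted p = 0.773 by limma), higher in 2 of 3 strains. Its other probe sets differed from this one. The dimmest one, without a suffix, went from 945 to 829, from 1059 to 880 and from 859 to 786 in the same strain order. In a limma fit with every probe set as a feature, chosen after seeing the data, it passed at -0.25 ± 0.07 (SE, adjusted p = 0.0434). The remaining probe set, with the _s suffix, gave 1235 and 1615 in N2, 1363 and 1363 in daf-16 worms, and 1086 and 1028 in receptor mutants, and did not pass in that fit. The direction of the spp-10 change therefore depends on the probe set.

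The gene spp-8 lies next but 1 to spp-10 on chromosome IV. Its brighter probe set gave signals of 491 and 428 in N2 (untreated, then octopamine), 346 and 401 in daf-16 worms and 556 and 396 in receptor mutants. The signal was lower with octopamine in N2 and the receptor mutant and higher in daf-16 worms, where the untreated value was the lowest of the 6. The log2 ratios were -0.29, 0.18 and -0.54 in the order N2, daf-16, receptor mutant, and the change of -0.22 ± 0.13 (SE, n = 6 arrays, adjusted p = 0.265 by limma), lower in 2 of 3 strains, did not pass. Without the daf-16 pair of arrays it was -0.41 (adjusted p = 0.0416 by limma), within a range of adjusted p from 0.0416 to 0.752 over the alternatives. The dimmer probe set, without a suffix, had the same signs, with larger falls in signal, at -0.62, 0.14 and -1.40. Its signal in receptor mutants went from 536 to 210.

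**Figure D2:**
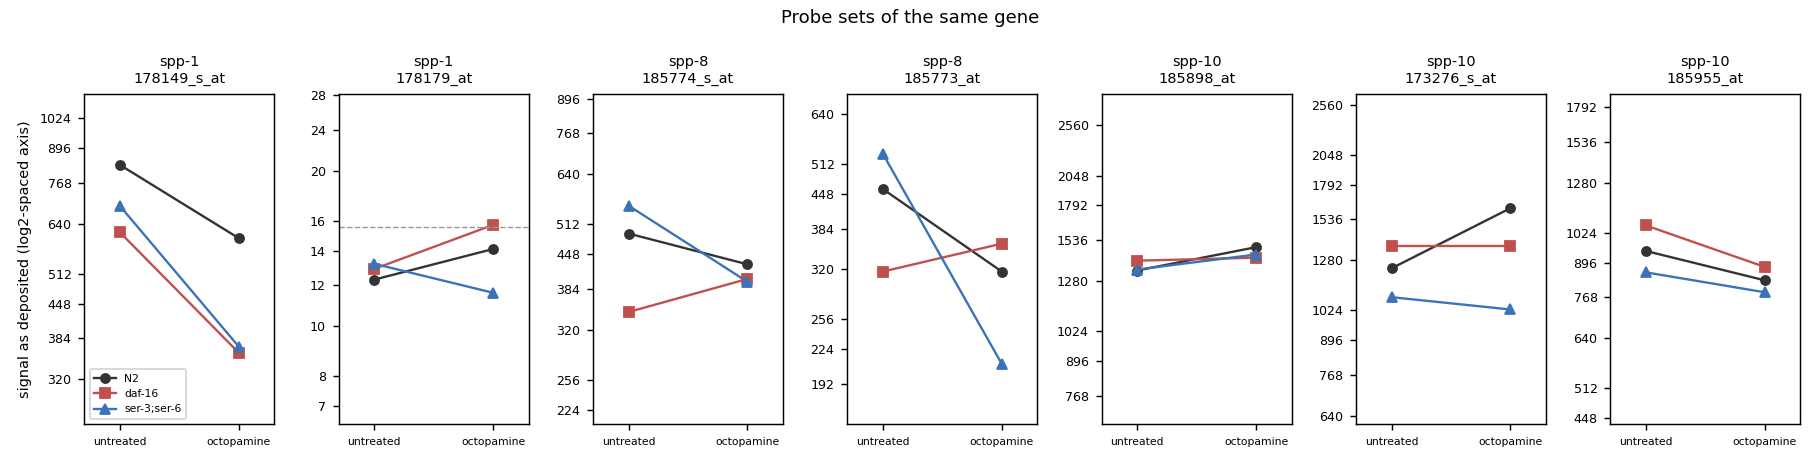
Signal as deposited (log2-spaced axis) of the probe sets of spp-1, spp-8 and spp-10 on each of the 6 arrays, untreated on the left and with octopamine on the right, with 1 line per strain and a dashed line at the filter value of 15.6. Both spp-8 probe sets show lines that go down in N2 and the receptor mutant and up in daf-16 worms, whereas the 3 probe sets of spp-10 take different courses.

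The gene spp-14, also on the X chromosome, varied little. Its signals were 935 and 877 in N2 (untreated, then octopamine), 929 and 849 in daf-16 worms, and 895 and 843 in receptor mutants. All 3 treated arrays were below all untreated ones, by log2 ratios of -0.18, -0.17 and -0.14. The change of -0.16 ± 0.07 (SE, n = 6 arrays, adjusted p = 0.135 by limma), lower in 3 of 3 strains, did not pass, and with values as deposited it was -0.10.

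The gene spp-12 stood apart from the others. It encodes a caenopore known from pharyngeal neurons rather than the intestine, with a role in defence against pathogenic bacilli. Its signal went from 13.8 to 35.5 in N2 and from 14.2 to 41.2 in daf-16 worms, but from 20 to 17.6 in receptor mutants. The treated arrays of N2 and daf-16 worms were above all 4 others, and both their untreated signals were below the filter value, so the size of the change is uncertain. The log2 ratios were 1.27, 1.50 and -0.23 in the order N2, daf-16, receptor mutant. Over the strains the estimate of 0.85 ± 0.29 (SE, n = 6 arrays, adjusted p = 0.0711 by limma), higher in 2 of 3 strains, did not pass. Without the receptor mutant's pair of arrays it was 1.39 (adjusted p = 0.000109 by limma), within a range of adjusted p from 0.000109 to 0.224 over the alternatives.

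In single strains spp-12 was the only member past 2-fold by the probe sets used. It was 1 of 7 members at least 2-fold higher in N2 and 1 of 7 in daf-16 worms, where 1.22% and 0.799% of all features were. In receptor mutants 0 of 7 members were 2-fold higher and 0 were 2-fold lower, beside 1.02% and 2.24% of all features. In N2 and daf-16 worms 0 members were 2-fold lower, beside 1.63% and 1.25%. With 16 added to each signal before the log, no member was past 2-fold in N2 or daf-16. Summed signals of neuronal markers were 1584 to 1631 on untreated and 1709 to 1783 on octopamine arrays, and those of pharyngeal markers 170 to 196 and 205 to 218. In receptor mutants, where spp-12 was not higher, they went from 1606 to 1776 and from 177 to 205. Of these lists, egl-3 rose among 6 neuronal and pha-4 and myo-1 among 5 pharyngeal genes tested, beside 7.22% of all features. The median log2 change over the strains was -0.01 for the neuronal and 0.09 for the pharyngeal genes tested, beside -0.06 for all features. No value in the table was 0, though unc-31 and ceh-22 were below the filter, and the part of these markers in the spp-12 values was not tested.

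The probe set shared by spp-9 and spp-21 was too dim to be tested. The gene spp-9 is known as a reporter that is repressed by the TGF-beta-like ligand DBL-1. Signals were 7.78 and 11.8 in N2 (untreated, then octopamine), 8.7 and 16.3 in daf-16 worms, and 11.3 and 11.1 in receptor mutants. As for spp-12, the N2 and daf-16 arrays were higher with octopamine and the receptor mutant was not, but 5 of the 6 values were below the filter.

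**Figure D3:**
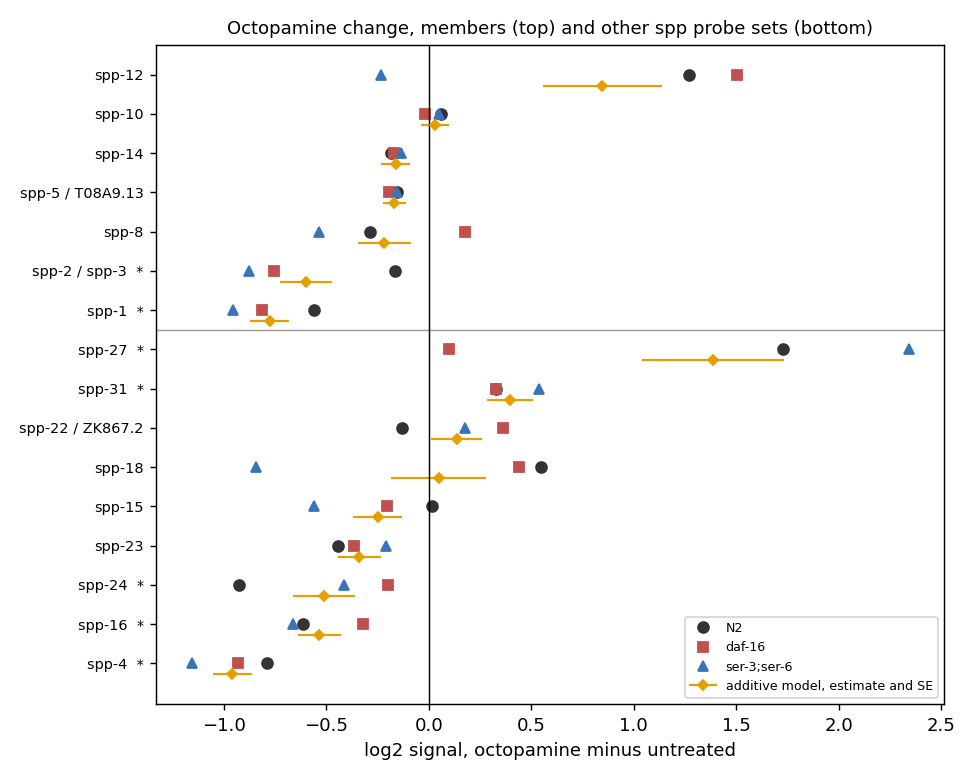
Octopamine change of the 16 spp features past the filter (log2 signal, octopamine minus untreated), with 1 point per strain and the additive model's estimate with its SE below it. Members are above the grey line and other spp features below it, and an asterisk marks an adjusted p under 0.05. The points of spp-12, spp-18 and spp-27 are spread widely across strains, while those of spp-10, spp-14 and spp-5/T08A9.13 lie together.

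To ask whether 1 strain answered octopamine differently, a term for that strain's response was added to the limma model, a choice made after seeing the data. For the receptor mutant, the term compares its octopamine change with the mean of N2 and daf-16 worms. It passed for 1 of 7 members, spp-12, and for 0.432% of all features. The spp-12 response in receptor mutants differed by -1.62 ± 0.23 (difference of log2 changes, SE, n = 6 arrays, adjusted p = 0.023 by limma), with an adjusted p between 0.00103 and 0.147 over the alternatives. Besides the small difference between N2 and daf-16 worms (1 residual degree of freedom), limma used the variance of all features (8.69 prior degrees of freedom). The test therefore leans mostly on that borrowed variance. It no longer passed in limma without the mean-variance trend (adjusted p = 0.147). For spp-8 the term was -0.48 ± 0.19 and for spp-2/spp-3 -0.42 ± 0.20, and neither passed (adjusted p = 0.245 and 0.339 by limma).

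For daf-16, the same kind of term compares its change with the mean of N2 and the receptor mutant. It passed for 0 of 7 members in limma, and for 0.0939% of all features. At an unadjusted p under 0.05 there were 2 members and 246 of the 10644 features. The members with the largest values were spp-12 at 0.98 ± 0.38 and spp-8 at 0.59 ± 0.24 (SE, n = 6 arrays, adjusted p = 1 for each by limma). With probe sets without a suffix only, the term of spp-8 was 1.15 for daf-16 and -1.16 for the receptor mutant, and both passed (adjusted p = 0.00899 and 0.0313 by limma). Those values belong to the dimmer spp-8 probe set. Both terms come from the same 3 ratios, and each mean holds the other mutant, so they are not separate results. The daf-16 term of spp-12 is likewise set against a mean that holds the receptor mutant, while its ratios were 1.27 in N2 and 1.50 in daf-16 worms.

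**Figure D4:**
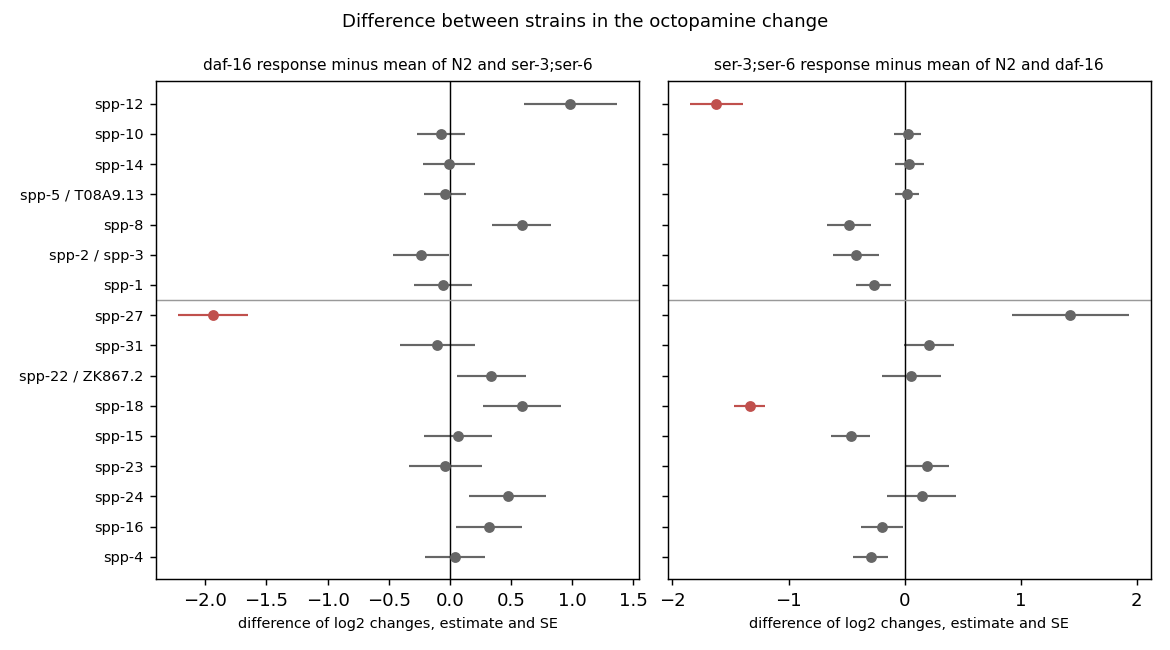
Difference between strains in the octopamine change of the 16 spp features past the filter (difference of log2 changes, estimate with SE), for daf-16 on the left and the receptor mutant on the right, members above the grey line. Red marks an adjusted p under 0.05, which holds on the left for spp-27, a feature past the filter only through its 2 high arrays, and for spp-12 at -1.62 and spp-18 at -1.33 on the right.

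Strain differences over both treatments were read from the additive model, in which both mutants are set against the same N2 arrays. No member passed in either mutant by limma. At an unadjusted p under 0.05 there were 2 of 7 members and 680 of 10644 features in daf-16 worms, and 1 member and 2314 features in receptor mutants. Of all features 0.291% passed in daf-16 worms and 2.55% in receptor mutants. The member nearest to the threshold was spp-1, which was lower than in N2 in both mutants, under either treatment. Its log2 ratios to N2, first untreated and then with octopamine, were -0.48 and -0.73 in daf-16 worms and -0.34 and -0.73 in receptor mutants. The fitted differences were -0.61 ± 0.12 in daf-16 worms and -0.54 ± 0.12 in receptor mutants (SE, n = 6 arrays, adjusted p = 0.125 and 0.053 by limma), each lower in 2 of 2 treatments. Over the alternatives the adjusted p ran from 0.00764 to 0.824 for daf-16 and from 0.0144 to 0.186 for the receptor mutant. The call for spp-1 in either mutant thus depended on the setting. Of 6 body wall muscle markers, 3 were lower in receptor mutants than in N2 by the same test, with a median of -0.51 over the list, and in daf-16 worms none passed and the median was 0.04. No intestinal marker passed in either mutant, and the part of tissue makeup in the spp-1 differences was not tested.

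The other members had smaller fitted differences from N2, or not in the same direction under both treatments. For spp-2/spp-3 the ratios of daf-16 to N2 were -0.08 without and -0.67 with octopamine, and those of the receptor mutant 0.37 and -0.34. For spp-8 they were -0.55 and -0.09 in daf-16 worms and 0.10 and -0.15 in receptor mutants. For spp-12 the receptor mutant was above N2 without octopamine, at 0.46, and below it with octopamine, at -1.05. For spp-5/T08A9.13, spp-10 and spp-14 the fitted strain differences lay between -0.13 and 0.01 by the probe sets used. The spp-10 probe set with the _s suffix was lower in receptor mutants than in N2, at -0.26 without and -0.69 with octopamine. In the fit with every probe set its difference was -0.48 ± 0.11 (SE, adjusted p = 0.0647 by limma) and did not pass. That of the dimmest spp-10 probe set was -0.17 ± 0.09.

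The rest of the family was taken by symbol, all other spp genes with a probe set. These were 17 genes in 15 features, of which 9 passed the filter. Of these 9, 2 passed upward and 3 downward with octopamine, beside 7.22% and 14.7% of all features. Of the upward ones, spp-27 reached the filter only through its 2 high octopamine arrays, so its call is no support for a rise and its estimate is left out. The other was spp-31 at 0.40 ± 0.11, and falling were spp-4, given above, spp-16 at -0.53 ± 0.10 and spp-24 at -0.51 ± 0.15 (SE, n = 6 arrays, adjusted p = 0.0401, 0.000671, 0.0104 and 0.046 by limma). Of these 4, all but spp-4 lost the call without the N2 pair of arrays (adjusted p from 0.0578 to 0.251). The call of spp-31 was also lost without either other pair and with no filter (0.0556). That of spp-24 was lost as deposited (0.0606), after quantile normalization (0.0502), with no filter (0.0534) and without the trend (0.0514).

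The signal of spp-27 went from 6.99 to 24.6 in N2 and from 7.45 to 39.1 in receptor mutants, but only from 7.73 to 8.5 in daf-16 worms. Both high values were above all 4 others, which were well below the filter value of 15.6, and the mean of 15.7 passed it only through them. The differences between strains in spp-27 are therefore given as signals, and its fitted daf-16 term supports neither a call nor a size. The signal of spp-18 went from 490 to 760 in N2, from 488 to 680 in daf-16 worms, and from 1064 to 614 in receptor mutants, whose untreated array was the highest of the 6. Its receptor mutant term was -1.33 ± 0.13 (SE, n = 6 arrays, adjusted p = 0.00548 by limma, from 5.44e-05 to 0.147 over the alternatives). The gene spp-15 was the family's only feature that passed between strains, lower in receptor mutants than in N2, with a log2 difference of -0.96 ± 0.15 (SE, n = 6 arrays, adjusted p = 0.0251 by limma) and in 2 of 2 treatments.

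Genes that work beside the members were also counted, in lists chosen with earlier results of these data known. Of all features, 7.22% rose and 14.7% fell with octopamine. Of 24 other antibacterial effectors tested, 7 rose and 9 fell with octopamine, with a median of -0.14. The largest changes among them were those of the lysozyme genes ilys-2 at 3.68 ± 0.14 and ilys-3 at 2.46 ± 0.30, and of the DAF-16-repressed gene dod-24 at -2.44 ± 0.17. Of 17 lysosomal and sphingolipid genes, the setting in which prosaposin acts, 3 rose and 3 fell, with a median of -0.08. The ceramidase gene asah-2 fell by 0.54 ± 0.10 and the hexosaminidase gene hex-1 by 0.47 ± 0.10, and the cholesterol transporter gene ncr-1 rose by 0.47 ± 0.12. Of 25 regulators of the family or of intestinal defence, 4 rose and 1 fell, with a median of 0.01. Among them tir-1, the adaptor at the head of the p38 pathway, rose by 0.75 ± 0.08, zip-2, a transcription factor of the infection response, by 0.54 ± 0.08, and elt-7 by the amount given above.

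The genes closest in pattern were sought for the 3 members whose log2 values spanned at least 1 over the 6 arrays. Likeness was the root mean square difference between gene-centred log2 values over these arrays, and the 3 nearest genes that are no members were taken. For spp-1 they were Y57G7A.1 at 0.09, zgpa-1 at 0.12 and apn-1 at 0.13. For spp-12 they were T16G1.6 at 0.13, B0416.7 at 0.21 and K09D9.1 at 0.23. The first of these, T16G1.6, had octopamine ratios of 0.95 in N2, 1.54 in daf-16 worms and -0.13 in receptor mutants. For spp-2/spp-3 they were E01G4.3, C50F4.1 and dhcr-7, at 0.14, 0.14 and 0.15.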

How the data were processed

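Total RNA from whole worms was labelled with biotin by 3′ IVT, per the labels, and measured on 6 Affymetrix arrays, 1 per group. The values are linear intensity values, as deposited by the authors, 1 per probe set. How they were summarised and normalised, and the genome build of the array, are not given in the sources used here. Of 22625 probe sets, 77 controls were left out. The platform annotation named 1 gene for 20766, several for 887 and none for 895. Probe sets naming several genes were kept as features of their own, and a feature was represented by its brightest probe set.

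Intensities were turned into log2 with no pseudocount, and each array's median was subtracted. The filter was the 40th percentile of mean signal, 15.6. The additive model in limma 3.58.1 (R 4.3.3), with a mean-variance trend, had 2 residual and 6.1 prior degrees of freedom. With a term for 1 strain's response it had 1 residual degree of freedom, and 26.7 prior ones for daf-16 and 8.69 for the receptor mutant. The additive model was also run on simulated arrays. These had the same octopamine effect in every strain and no strain differences, so the run cannot show how responses that differ between strains are handled. Python 3.11.15 did the rest. The number of arrays limits the precision. Named genes were all members, family genes past a test, up to 3 genes per list with the largest change past the octopamine test, and the nearest genes in pattern. The members and lists were chosen with earlier results of these data known. Alternatives were scaling, pseudocount, filter, probe set choice, the trend and leaving out a strain's pair of arrays. The fits with 1 symbol only, with every probe set and with a term for 1 strain's response were added after seeing the data.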

Additional observations from a re-analysis of the deposited data

Results flagged for a closer look

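Octopamine changes were compared between strains in a model with a term for 1 strain's response. The term is the strain's log2 change minus the mean change of the other strains. By this test those of spp-12 (-1.62) and spp-18 (-1.33) differed in the receptor mutant. The daf-16 term of spp-27 (-1.94) also passed, but neither its call nor its size has weight. The 2 high arrays that make this term are also those that took the mean of spp-27, 15.7, past the filter value of 15.6. The 4 low signals of spp-27, at 6.99 to 8.5, were far below that value. For spp-12 the untreated signals of N2 and daf-16 were below that value. Among the members, spp-8 and spp-10 had octopamine ratios in daf-16, of 0.176 and -0.0189, with a sign opposite to that in the other strains. For spp-8 and spp-10 that difference did not pass in the model with a term for daf-16 (0.59 ± 0.24 and -0.07 ± 0.20), and the opposition of signs itself was not tested. No group had enough arrays for a search for outlying samples.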

How the results depend on the processing

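With 1 array per group no test within a single strain was possible, but the additive model already paired the treated with the untreated array of each strain. Of the recomputed octopamine changes of the members, 83 kept their direction and side of the threshold, 2 newly passed and 1 reversed. The filters, the trend, 1-symbol genes and every probe set leave an estimate as it was, so no reversal was possible there. The same holds for the probe set choices where a member has 1 probe set. The falls of spp-1 and spp-2/spp-3 passed in every alternative that gave a value, but without suffixed probe sets spp-1 had none past the filter, so 1 member fell, as also with 1-symbol genes only. Leaving out each pair gave 0 to 1 members rising, the 1 being spp-12 without the receptor mutant, and 1 member lower (spp-1) in daf-16 without the receptor mutant and in the latter without daf-16 or with every probe set as a feature. With 16 added, or at the 60th percentile, which removes spp-12, 0 members were 2-fold higher in N2 or daf-16. Without suffixed probe sets 1 member (spp-8) was 2-fold lower in the receptor mutant.

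Signs turned for spp-10 with octopamine (-0.0592), in its receptor mutant term (-0.0385) and in daf-16 (0.00195), all with the mean of its probe sets, and after quantile normalization in daf-16 (0.0287) and the receptor mutant (0.0613). They also turned for spp-8 in the receptor mutant (0.032 as deposited, 0.0837 after quantile normalization) and for the daf-16 term of spp-1 (0.12 with the mean of probe sets). For spp-18 with octopamine, -0.20 and -0.15 without N2 and without daf-16 stood beside 0.49 without the receptor mutant.

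Without the trend, the receptor mutant terms of spp-12 (-1.62) and spp-18 (-1.33) no longer passed. The daf-16 term of spp-27, which supports neither a call nor a size, did not pass as deposited (-1.97) or with the mean of probe sets (-1.94).

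Over all features, leaving out each pair gave 337 to 924 rising and 779 to 1857 falling. Without suffixed probe sets 492 rose, and after quantile normalization 920 fell. In daf-16, 13 were lower without suffixed probe sets, 8 without the trend, and 32 higher and 134 lower without the receptor mutant. In the receptor mutant, 132 were lower as deposited, 107 after quantile normalization, and 99 lower and 17 higher without the trend. Without daf-16 they were 495 and 114. The causes were not tested.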
